A study of Mus musculus with 9 samples.

Results

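The laminins and nidogens of the basal lamina were followed in mouse ovaries through the days on which follicles form their first antrum. The 10 genes were taken by symbol from the deposited tables: the laminin chains Lama1, Lama2, Lama4, Lama5, Lamb1, Lamb2, Lamc1 and Lamc3 and the nidogens Nid1 and Nid2. They are 10 of the 52025 genes listed, and all 10 passed the filter on low values. The ovaries came from Kunming mice, an outbred strain, at postnatal day (PD) 14, PD15 and PD16, with 3 libraries for each day and no genetic change or treatment named for any group. The study describes the replicates as independent ovaries, and the days bracket the initial formation of the follicular antrum, so the comparison asks which transcripts change while the first fluid-filled cavity appears. Values are FPKM, the mapped fragments of a gene scaled by its exon length and by the depth of its library.

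The basal lamina is a thin sheet of extracellular matrix. In the ovary it surrounds the granulosa cells of each follicle and separates them from the theca, and other basal laminae lie around blood vessels and under the surface epithelium. Its laminins are trimers of an alpha, a beta and a gamma chain that join into a network at the cell surface, where alpha chains bind integrins and dystroglycan. Nidogens link the laminin network to that of collagen IV. The chain makeup of the follicular basal lamina is known to change as follicles grow.

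Each library held between 20.4 and 28.7 M mapped fragments. This depth was derived from the step that a single fragment adds to the FPKM of a gene. The labels name granulosa cells as the source and ovary as the tissue. Markers of oocytes, theca and steroidogenic cells and endothelium were all measured, with summed FPKM of 1021 to 1496, 1133 to 2191 and 85.1 to 111 per library, so the libraries were described as ovaries. In such bulk libraries, fewer cells of a type and less RNA per cell cannot be told apart.

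Of the 10 laminin and nidogen transcripts, 9 showed no change between days that passed the test. Lamc3, which encodes the laminin gamma 3 chain, rose 1.36-fold from PD14 to PD16. It was the single member to pass an adjusted p of 0.05 in any pair of days (limma, with Benjamini-Hochberg adjustment over the 15495 genes tested). Thus 1 of 10 members was called at PD16 against PD14, where 4.25% of all genes were called and 2.36% were called and higher. No member was called at PD15 against PD14 or at PD16 against PD15, where 0.678% and 0.729% of all genes were called. An unadjusted p under 0.05 was found for 2 of 10 members, Lamc3 and Lama4, at both PD15 against PD14 and PD16 against PD14 and for none at PD16 against PD15. Over all genes the shares were 14.7%, 22.8% and 14.1%. The moderated F test over all days called Lamc3 (adjusted p = 0.0431, limma), as it did 3.03% of all genes. This call was lost in each of the 9 fits that left out 1 library, with no filter on low values, in TPM, in limma without a trend and with the replicate block. Lamc3 and Lama4 had an unadjusted p under 0.05 in it, beside 22.3% of all genes. The median log2 change of the 10 members was 0.0069 at PD15 against PD14, -0.052 at PD16 against PD14 and -0.035 at PD16 against PD15, and that of all genes was 0.0065, 0.0093 and 0.0091.

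**Figure D1:**
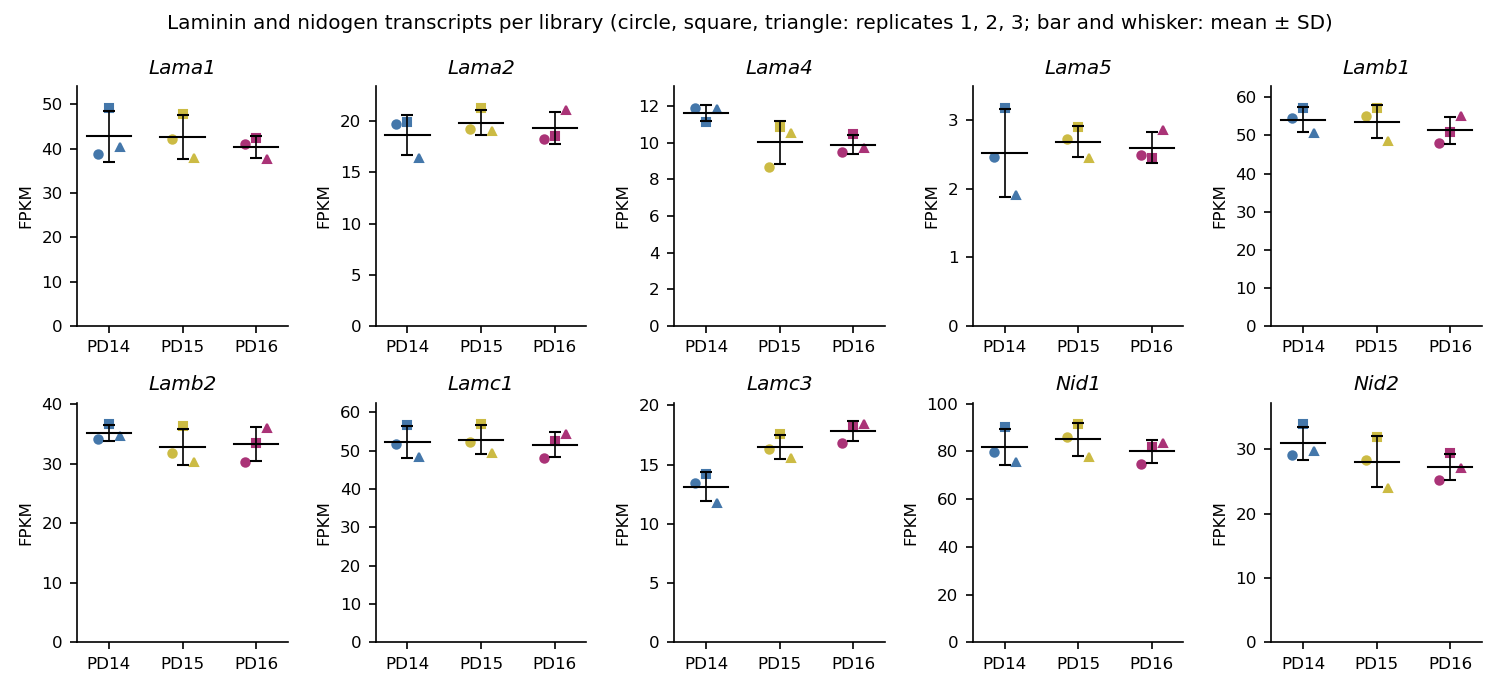
FPKM (vertical axes, each from 0) of the 10 laminin and nidogen genes in every library of PD14, PD15 and PD16. Points are libraries, and bars with whiskers are the mean ± SD of 3 libraries. The PD14 libraries of Lamc3 lie between 11.8 and 14.2, below all libraries of PD15 and PD16, and those of Lama4 lie between 11.1 and 11.9, above all later libraries.

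The levels of the members spanned a wide range. Nid1 was the most abundant, at 74.5 to 91.3 FPKM over the 9 libraries, and was above all other members in each of them. Lamb1, at 48.1 to 57.3 FPKM, and Lamc1, at 48.0 to 56.9 FPKM, came next and could not be ordered, since Lamb1 was the higher in 7 of 9 libraries. Lama1, at 37.7 to 49.2 FPKM, was below Lamc1 in each library, although their ranges overlapped across libraries. Lamb2 followed at 30.2 to 36.6 FPKM, Nid2 at 23.9 to 33.9 FPKM and Lama2 at 16.4 to 21.3 FPKM. Lamb2 was above Nid2 in 9 of 9 libraries, with overlapping ranges, and the ranges of Nid2 and Lama2 did not overlap. Lamc3, at 11.8 to 18.4 FPKM, was below Lama2 in each library and above Lama4, at 8.67 to 11.9 FPKM, in 8 of 9. Lama5 was the lowest, at 1.91 to 3.18 FPKM. These levels depend on the length used for each gene. With the union of all annotated exons as the length, the FPKM of 7 of the 10 members came out as whole fragments within 0.02, those named next among them, and those of Lama1, Nid1 and Nid2 did not (up to 0.39 off). This union for Lama4 is 12068 bases against 6046 bases in its longest coding transcript, for Lama2 16338 against 9614 bases and for Lamb1 9917 against 5784 bases. A longer divisor lowers the level of these genes beside those such as Lama5, where both lengths are 11388 bases, and it is the same on every day.

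The gamma chains were Lamc1, found in most laminins, and Lamc3, a chain of more restricted expression. Lamc1 lies on chr1:153218922-153332786 (minus strand) and Lamc3 on chr2:31887291-31946539 (plus strand) of GRCm38, the same assembly as mm10. Gamma chains carry the site that holds nidogen, a short loop in a repeat of the short arm that was mapped in gamma 1. The coding sequence around this loop is shown because it ties the laminin and nidogen members to each other and because it lets Lamc3 be set beside Lamc1 at the site they have in common. It was read from GENCODE M21 transcripts on GRCm38. Capitals mark the 21 bases for the loop in Lamc1 and the bases aligned with it in Lamc3.

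Lamc1, exon 14, chr1:153243337-153243405: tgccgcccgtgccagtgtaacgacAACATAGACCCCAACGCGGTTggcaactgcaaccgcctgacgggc

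Lamc3, exon 14, chr2:31920574-31920642: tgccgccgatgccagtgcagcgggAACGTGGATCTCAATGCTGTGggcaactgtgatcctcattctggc

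Over the 69 bases shown, Lamc3 had 47 bases in common with Lamc1. Within the loop, Lamc1 and Lamc3 had 14 of 21 bases in common and encoded 5 of 7 residues alike. Nowhere in their transcripts did Lamc1 and Lamc3 have more than 19 identical bases in a row, and the longest such run between any pair of members was 29 bases, between Lama1 and Lama2.

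Lamc3 was measured at 13.5, 14.2 and 11.8 FPKM in the PD14 libraries, at 16.3, 17.6 and 15.6 FPKM in the PD15 libraries and at 16.9, 18.2 and 18.4 FPKM in the PD16 libraries. The PD14 libraries were below all others, and those of PD15 and PD16 overlapped. Its mean rose from 13.1 ± 1.25 FPKM (SD, n = 3) at PD14 to 17.8 ± 0.834 FPKM at PD16, a log2 change of 0.42 on the log2(FPKM + 1) scale (SE 0.076, 95% interval 0.24 to 0.59, adjusted p = 0.0245). At PD15 the mean was 16.5 ± 1.01 FPKM, and the log2 change from PD14 was 0.31 (SE 0.076, 95% interval 0.14 to 0.48), which did not pass the adjustment (adjusted p = 0.116). From PD15 to PD16 the log2 change was 0.11 (95% interval -0.07 to 0.28, adjusted p = 0.589). An exact permutation test over the 1680 ways to divide the 9 libraries into the days gave p = 0.00714 for Lamc3 (F statistic, upper tail). Between a pair of days, the exact test cannot go below p = 0.10, and this value was reached for PD14 against PD15 and against PD16.

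The call of Lamc3 was close to the threshold. It was lost with no filter on low values (adjusted p = 0.0604) and with FPKM rescaled to TPM (adjusted p = 0.102). It was kept in 4 of the 9 fits that left out 1 library, and it was lost without PD14 replicate 1 (adjusted p = 0.0644), PD14 replicate 3 (0.0763), PD16 replicate 1 (0.0612), PD16 replicate 2 (0.0659) or PD16 replicate 3 (0.0568), with a log2 change of 0.34 to 0.47 over all 9 such fits. Lamc3 was covered by 1459 to 2850 fragments per library. Its exons overlap those of Gm13441 by 382 bases, and Gm13441 was at most at 0.142 FPKM.

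Lamc1 was measured at 51.8, 56.7 and 48.3 FPKM at PD14, at 52.4, 56.9 and 49.3 FPKM at PD15 and at 48.0, 52.5 and 54.3 FPKM at PD16. The libraries of the days overlapped throughout. The log2 change from PD14 to PD16 was -0.02 (95% interval -0.20 to 0.17), so the interval leaves out a rise as large as the fitted change of Lamc3.

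The level of Lamc3 relative to Lamc1 varied less between replicates than either gene did. The ratio of Lamc3 to Lamc1 in FPKM was 0.260, 0.250 and 0.244 at PD14, 0.311, 0.309 and 0.316 at PD15 and 0.351, 0.347 and 0.339 at PD16. The libraries of each day were apart from those of the others, and the ratio was higher on each later day. This ratio was chosen after its values were seen, and no test is given. As background, the ratio of Lamc3 to another gene was higher on each later day without overlap for 11.2% of 15309 other genes, and PD16 was above PD14 in all libraries for 67.2% of them. Among the members, the ratio of Lamc3 to each of the other 9 was apart between PD14 and PD16, against 3 of the 36 pairs without Lamc3. Because these 9 ratios share Lamc3, they are not separate results, and no share over all pairs of genes is given. All days were apart from each other in 4 of the 45 pairs, those of Lamc3 with Lamc1, Lama2, Lamb1 and Nid1. Of the summed FPKM of Lamc1 and Lamc3, the share of Lamc3 was 20.1% ± 0.519 (SD, n = 3) at PD14. It was 23.8% ± 0.209 on PD15 and 25.7% ± 0.342 on PD16.

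**Figure D2:**
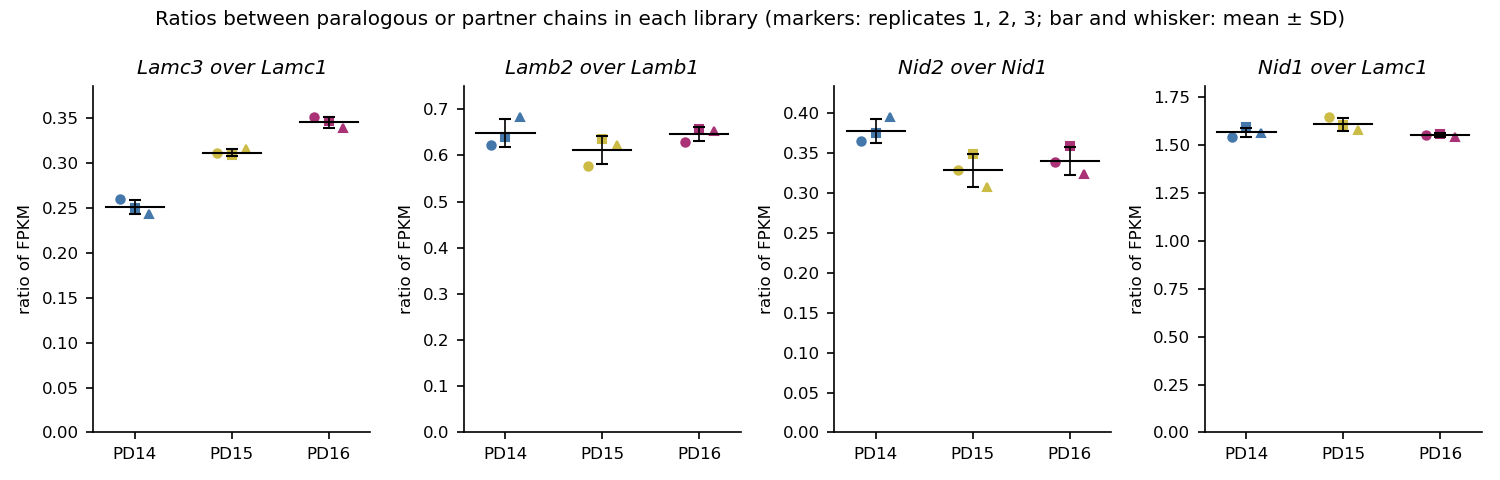
Ratios of FPKM between related or partner chains (vertical axes, each from 0) in every library by day, with mean ± SD of 3 libraries. Lamc3 over Lamc1 runs from 0.244 at PD14 to 0.351 at PD16 with the days apart, whereas Nid1 over Lamc1 stays between 1.54 and 1.64 in all 9 libraries.

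**Figure D3:**
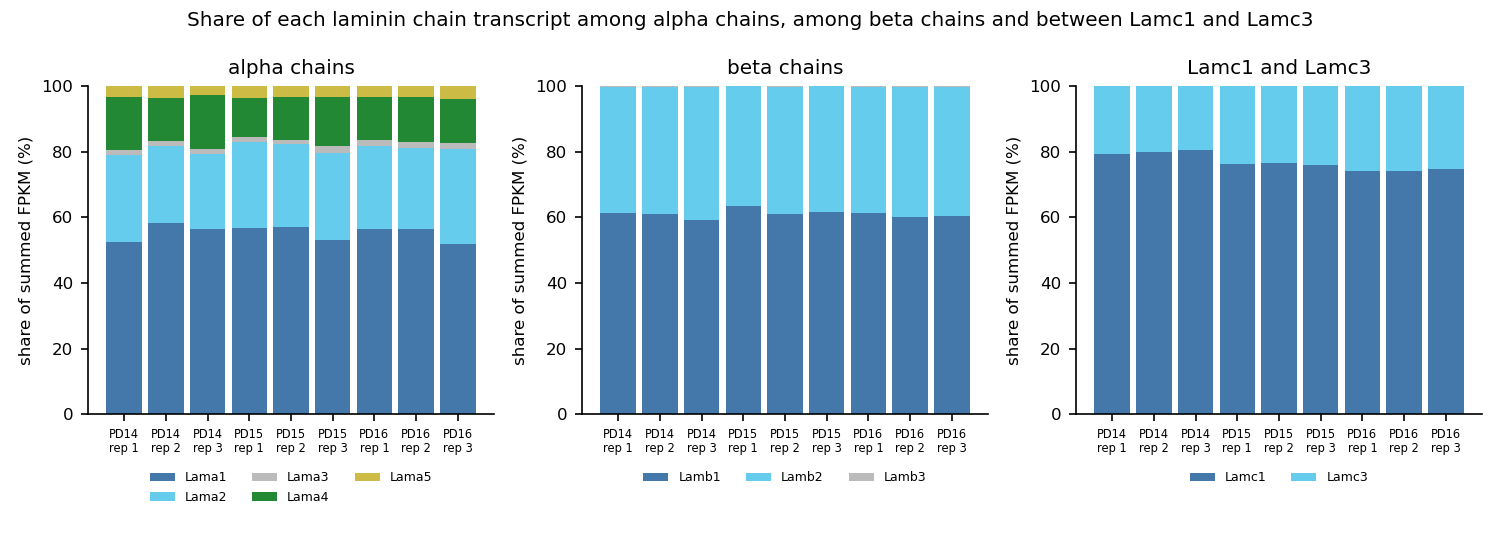
Share of each chain in the summed FPKM (%, vertical axes) of the alpha chain genes, of the beta chain genes and of Lamc1 with Lamc3, as stacked bars for the 9 libraries. The Lamc3 part grows from 20.1% at PD14 to 25.7% at PD16 on average, and Lama1 is the largest part of every alpha bar. The size of each share depends on the length used for each gene.

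Markers of several cell types changed between the days on which Lamc3 was compared. At PD15 against PD14, the oocyte gene Nlrp5 rose (log2 change 0.76, adjusted p = 0.0377), with 8 of 9 oocyte markers positive and a median of 0.23. The hemoglobin gene Hba-a1 (-1.35, adjusted p = 0.0381) and the listed fat marker Plin1 (-0.60, adjusted p = 0.0377) fell, and no other marker listed was called. Of 6 theca and steroidogenic cell markers, 5 had a negative change, with a median of -0.43. At PD16 against PD15, Nlrp5 (-0.72, adjusted p = 0.0439) and Zp2 (-0.61, adjusted p = 0.0427) fell. All 9 oocyte markers had a negative change there, with a median of -0.47. The summed oocyte markers were at 1068 to 1314 FPKM at PD14, 1401 to 1496 FPKM at PD15 and 1021 to 1088 FPKM at PD16. At PD16 against PD14, the granulosa cell hormone gene Amh rose (log2 change 0.47, adjusted p = 0.0223), whereas the granulosa cell genes Cyp19a1 (-0.84, adjusted p = 0.0316) and Kitl (-0.50, adjusted p = 0.0494) fell, and the other 5 of 8 granulosa cell markers were not called. For Cyp19a1 the study reports the other direction by quantitative PCR, an increase on PD15 and PD16. The summed granulosa cell markers were at 2658 to 3255 FPKM at PD14 and 2647 to 3112 FPKM at PD16, with overlapping libraries. Of 6 surface epithelium markers tested, 4 fell (Krt8, Krt18, Krt19 and Lgals7, by 0.42 to 0.49 on the log2 scale). Over all genes, 1.89% were called and lower. The other 2 surface epithelium markers had a positive change and were not called. The sum of all 8 listed was 69.7 to 79.3 FPKM at PD14 and 53.4 to 58.7 FPKM at PD16. Of 8 smooth muscle and pericyte markers, Cnn1 rose (0.61) and Rgs5 fell (-0.62). Of 9 oocyte markers, Bmp15 rose (0.39, adjusted p = 0.0331) and the others were not called, while 6 of the 9 had a negative change and the median was -0.23. Plin1 fell (-0.50, adjusted p = 0.0294), and it was the only 1 of 3 fat markers high enough to be tested. The other fat markers were at most at 0.44 FPKM in any library, so Plin1 alone does not show a change in fat cells. The part of these cell types in the change of Lamc3 was not tested.

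The alpha chains give a laminin its receptor binding. Lama1, on chr17:67697259-67822647 (plus strand), encodes alpha 1, the chain of early embryonic and several epithelial basal laminae. Its libraries held 38.7, 49.2 and 40.4 FPKM at PD14, at 42.1, 47.9 and 37.8 FPKM at PD15 and at 41.0, 42.5 and 37.7 FPKM at PD16. The days overlapped, and the log2 change from PD14 to PD16 was -0.07 (95% interval -0.32 to 0.17, adjusted p = 0.727). Lama1 was the largest part of the summed alpha chain FPKM on every day, with 55.6% ± 2.97, 55.6% ± 2.25 and 54.9% ± 2.73 (SD, n = 3). The size of this share depends on the lengths used, which for Lama2 and Lama4 were far longer than their longest coding transcripts.

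Lama2, on chr10:26980036-27619758 (minus strand), encodes alpha 2, the chain of muscle and Schwann cell basal laminae that binds dystroglycan. It was measured at 19.7, 19.9 and 16.4 FPKM at PD14, at 19.2, 21.3 and 19.1 FPKM at PD15 and at 18.3, 18.5 and 21.1 FPKM at PD16. The days overlapped, and the log2 change from PD14 to PD16 was 0.05 (95% interval -0.15 to 0.25, adjusted p = 0.783). Its share of the alpha chains was 24.3% ± 2.01, 26.0% ± 0.673 and 26.3% ± 2.37.

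Lama4, on chr10:38965515-39110188 (plus strand), encodes alpha 4, a chain known from the basal lamina of blood vessels. It was measured at 11.9, 11.1 and 11.8 FPKM at PD14, at 8.67, 10.8 and 10.5 FPKM at PD15 and at 9.49, 10.5 and 9.73 FPKM at PD16. All PD14 libraries were above all later libraries, and PD15 and PD16 overlapped. The log2 change was -0.20 at PD15 (SE 0.081, 95% interval -0.38 to -0.02, adjusted p = 0.290) and -0.21 at PD16 (SE 0.081, 95% interval -0.39 to -0.03, adjusted p = 0.159), so neither passed the adjustment. Without PD15 replicate 1, the change at PD15 was -0.11. The exact permutation test over the days gave p = 0.0821, and that between each of these pairs of days gave its smallest value, p = 0.10. Lama4 and Lamc3 were the members whose PD14 libraries did not overlap those of PD15 or of PD16, 2 of 10 members in each comparison, beside 20.6% and 28.5% of all genes tested, and no member was apart between PD15 and PD16, beside 19.6%. Endothelial markers were measured beside Lama4: of 8, 7 had a negative log2 change at PD15 and 7 at PD16. Their median changes were -0.11 and -0.16, and limma called none of them after adjustment, with 1 of 8 at PD15 and 4 of 8 at PD16 at an unadjusted p under 0.05, beside 14.7% and 22.8% of all genes. Their sum was 99.4 to 111 FPKM at PD14, 90.0 to 98.5 FPKM at PD15 and 85.1 to 94.1 FPKM at PD16. The PD14 sums were thus above the later ones, but by little at PD15 (99.4 against 98.5 FPKM). Most of the single endothelial markers overlapped between PD14 and PD15. Rgs5, a marker of pericytes, also had its PD14 libraries above all later ones, with log2 changes of -0.66 at PD15 (adjusted p = 0.0552) and -0.62 at PD16 (adjusted p = 0.0294). Of all 8 smooth muscle and pericyte markers, 3 had a positive change at PD15 (median -0.04) and 6 at PD16 (median 0.19). The summed smooth muscle and pericyte markers overlapped between the days, at 326.6 to 366 FPKM at PD14, 306 to 382 FPKM at PD15 and 346 to 446 FPKM at PD16. The part of these cell types in the values of Lama4 was not tested.

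Lama5, on chr2:180176373-180225859 (minus strand), encodes alpha 5, the widespread alpha chain of mature epithelial and vascular basal laminae. It was the lowest member, at 2.47, 3.18 and 1.91 FPKM at PD14, at 2.72, 2.90 and 2.45 FPKM at PD15 and at 2.49, 2.45 and 2.87 FPKM at PD16. The PD14 libraries spanned those of the later days. The log2 change from PD14 to PD16 was 0.05 (95% interval -0.24 to 0.33, adjusted p = 0.863), the widest interval of the members, and the gene was covered by 444 to 876 fragments per library. This interval allows a rise of up to 0.33.

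Neither beta chain showed a change that passed the test. Lamb1, on chr12:31265234-31329644 (plus strand), encodes beta 1, the partner of gamma 1 in most laminins. Its level was 54.7, 57.3 and 50.7 FPKM at PD14, at 55.1, 57.1 and 48.7 FPKM at PD15 and at 48.1, 50.9 and 55.2 FPKM at PD16, with overlap between all days. Its log2 change from PD14 to PD16 was -0.08 (95% interval -0.26 to 0.11, adjusted p = 0.618).

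Lamb2, on chr9:108479736-108490530 (plus strand), encodes beta 2, a chain known from the kidney filter and the neuromuscular junction. Its level was 34.1, 36.6 and 34.5 FPKM at PD14, at 31.8, 36.2 and 30.3 FPKM at PD15 and at 30.2, 33.5 and 36.0 FPKM at PD16, with overlap between all days. Its log2 change from PD14 to PD16 was -0.08 (95% interval -0.26 to 0.11, adjusted p = 0.612). Lamb1 took 60.5% ± 1.08 of the summed beta chain FPKM at PD14, 62.0% ± 1.18 at PD15 and 60.6% ± 0.560 at PD16, and the ratio of Lamb2 to Lamb1 stayed between 0.577 and 0.682. The size of this share and ratio also depends on the lengths used.

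The nidogens are the linkers of the sheet. Nid1, on chr13:13437551-13512269 (plus strand), encodes nidogen-1, which binds the gamma 1 loop shown above. It was measured at 79.8, 90.3 and 75.5 FPKM at PD14, at 86.1, 91.3 and 77.7 FPKM at PD15 and at 74.5, 81.8 and 83.6 FPKM at PD16. The days overlapped, and the log2 change from PD14 to PD16 was -0.03 (95% interval -0.23 to 0.17, adjusted p = 0.872). Per fragment and length, Nid1 was above Lamc1 in every library, at a ratio of 1.54 to 1.64.

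Nid2, on chr14:19751265-19811787 (plus strand), encodes nidogen-2, the paralog with a similar linking role. The libraries gave 29.1, 33.9 and 29.8 FPKM at PD14, at 28.3, 31.9 and 23.9 FPKM at PD15 and at 25.2, 29.4 and 27.1 FPKM at PD16. The log2 change was -0.14 at PD15 (95% interval -0.38 to 0.09, adjusted p = 0.566) and -0.18 at PD16 (95% interval -0.41 to 0.06, adjusted p = 0.352), and the days overlapped. These changes moved with single libraries: at PD15 to -0.08 without PD14 replicate 2, -0.24 without PD15 replicate 2 and -0.04 without PD15 replicate 3, and at PD16 to -0.11 without PD14 replicate 2. The ratio of Nid2 to Nid1 was 0.365, 0.375 and 0.395 at PD14, 0.329, 0.349 and 0.308 at PD15 and 0.338, 0.359 and 0.324 at PD16. In this ratio the PD14 libraries were above all later libraries. It was 1 of the 3 pairs without Lamc3 that were apart between PD14 and PD16, of 36 such pairs, and it is given as a description. The exons of Nid2 overlap those of Rtraf by 437 bases. Rtraf reached 82.8 FPKM and the library kit does not mark the strand, so Nid2 may include fragments of Rtraf.

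**Figure D4:**
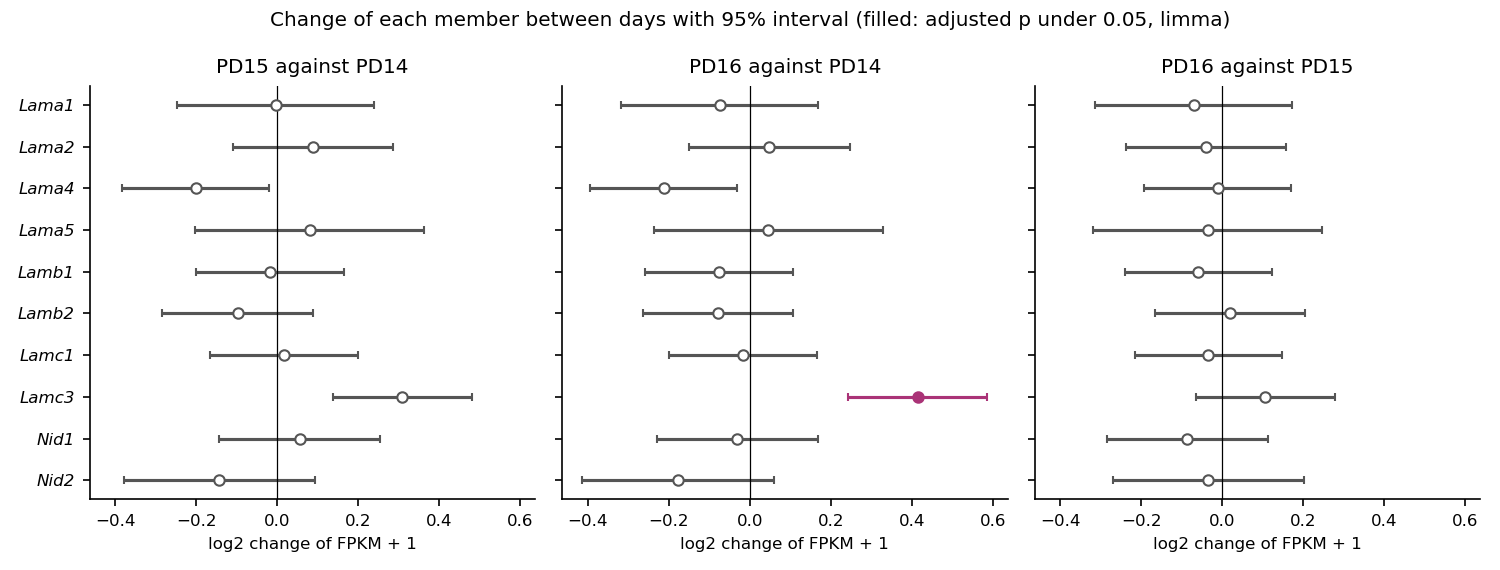
Log2 change of FPKM + 1 (horizontal axes) of the 10 members between each pair of days, with 95% intervals from limma; filled points have an adjusted p under 0.05. The single filled point is Lamc3 at PD16 against PD14, at 0.42, and the intervals of Lama4 lie below 0 in both comparisons with PD14.

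Most members other than Lama4 deviated in the same direction in several libraries. In PD14 replicate 2, 9 of 10 members were above their mean for the day, with a mean deviation of 0.11 on the log2 scale, and in PD15 replicate 2 all 10 were, with 0.12. In PD14 replicate 3, PD15 replicate 3 and PD16 replicate 1, 1 of 10 members was above its mean for the day, with mean deviations of -0.10, -0.10 and -0.07. The members have long transcripts, with 5174 to 16338 exonic bases, and the median deviation of the 3980 genes of at least 6000 exonic bases was smaller and of the same sign in these libraries, at 0.03, 0.01, -0.04, -0.03 and -0.02. Over all 9 libraries the sign was the same in 6 and opposite in 3, namely PD14 replicate 1, PD15 replicate 1 and PD16 replicate 2. The part of gene length in this shared movement was not tested. Over the 9 libraries, with the mean of each day taken off, the deviations of Lamc1 and Nid1 were the most alike (r = 0.982, Spearman's rho = 0.933), followed by those of Lamc1 and Lamc3 (r = 0.954, rho = 0.967). Those of Lama4 and Lama5 were the least alike (r = -0.259, rho = -0.350), and Lama4 had an r of -0.259 to 0.236 with the other 9 members. These values share the 9 libraries and are descriptions. In levels, the ratio of Lamb1 to Lamc1 stayed between 0.971 and 1.06, although Lamb1 itself ran from 48.1 to 57.3 FPKM. The size of this ratio depends on the lengths used. They were 9917 bases for Lamb1, against 5784 in its longest coding transcript, and 8272 for Lamc1, against 7622. The ratio therefore does not show equal amounts of the 2 transcripts.

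Among all genes tested, the gene whose log2(FPKM + 1) followed that of each member most closely over the 9 libraries was also named. It was Anks6 for both Lamc1 (r = 0.983) and Nid1 (r = 0.974), Prdm11 for Lamb1 (0.980), Lmf2 for Lamb2 (0.967) and Gm17709 for Lamc3 (0.964). It was Rnf19b for Lama1 (0.925), Zfhx4 for Lama2 (0.970), Upf3b for Lama5 (0.970) and Trim35 for Nid2 (0.958). For Lama4 it was Cnp (0.987), the gene of a myelin phosphodiesterase. Each is the highest correlation among all genes tested, over 9 libraries.

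Lama3, the alpha chain of epithelial laminins, was at 1.12 to 1.50 FPKM and made up 1.55% to 1.79% of the alpha chains on average, with a log2 change of 0.08 from PD14 to PD16 (adjusted p = 0.655). Lamb3, its beta partner, was at 0.0948 to 0.302 FPKM and was too low to be tested. Ntn4 encodes netrin-4, which is known to bind laminin gamma chains and to loosen the laminin network. It was measured at 4.48, 3.83 and 3.07 FPKM at PD14, at 4.13, 3.88 and 4.03 FPKM at PD15 and at 6.21, 5.25 and 7.92 FPKM at PD16. The PD16 libraries were above all others. Ntn4 rose 1.70-fold from PD14 to PD16 (log2 change 0.63, SE 0.137, adjusted p = 0.0375), and its log2 change from PD15 to PD16 was 0.56 (adjusted p = 0.104).

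None of the 6 collagen IV chains was called by limma between any pair of days, and 1 of 6, Col4a6, had an unadjusted p under 0.05 at PD16 against PD14 and against PD15, beside 22.8% and 14.1% of all genes. Col4a1 and Col4a2, the chains of the common collagen IV network to which nidogens bind, were at 126 to 166 FPKM and 83.8 to 109 FPKM. Their log2 changes from PD14 to PD16 were 0.01 (95% interval -0.21 to 0.23) and -0.03 (95% interval -0.26 to 0.20). Col4a3 was at 1.77 to 3.17 FPKM, Col4a4 at 7.72 to 11.7 FPKM, Col4a5 at 15.8 to 19.4 FPKM and Col4a6 at 3.04 to 4.67 FPKM. From PD14 to PD16, 5 of the 6 had a positive change, the highest for Col4a6 at 0.22 (unadjusted p = 0.0446 and adjusted p = 0.207, limma). From PD15 to PD16 the change of Col4a6 was 0.33 (unadjusted p = 0.00614, adjusted p = 0.152), and its PD16 libraries were above those of PD15.

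Of 18 other basement membrane components tested, Fbln1 rose at PD16 against PD14. Fbln1 encodes fibulin-1, a matrix protein that binds laminin and nidogen. It was measured at 45.9, 48.2 and 51.5 FPKM at PD14, at 53.0, 53.1 and 48.1 FPKM at PD15 and at 59.9, 71.4 and 62.8 FPKM at PD16, with the PD16 libraries above all others (log2 change 0.40, SE 0.080, adjusted p = 0.0294). The other components were not called. Of all 18, 11 had a negative change, the median was -0.08, and 7 had an unadjusted p under 0.05, beside 22.8% of all genes. None of the 6 laminin receptors tested passed the adjustment by limma. At PD16 against PD14, 3 of them had an unadjusted p under 0.05, beside 22.8% of all genes, and 5 of them had a negative change, with a median of -0.16 over the 6. Among 11 genes of dystroglycan glycosylation, which builds the sugar chain that laminin alpha chains bind, B3galnt2 rose. It encodes a sugar transferase of that chain and was measured at 16.9, 19.5 and 18.1 FPKM at PD14, at 19.2, 18.9 and 18.9 FPKM at PD15 and at 21.4, 22.2 and 22.4 FPKM at PD16 (log2 change 0.26, SE 0.058, adjusted p = 0.0401). Thus 3 of the 43 related genes tested rose and 0 fell at PD16 against PD14, beside 2.36% and 1.89% of all genes, and none was called in the other comparisons.

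**Figure D5:**
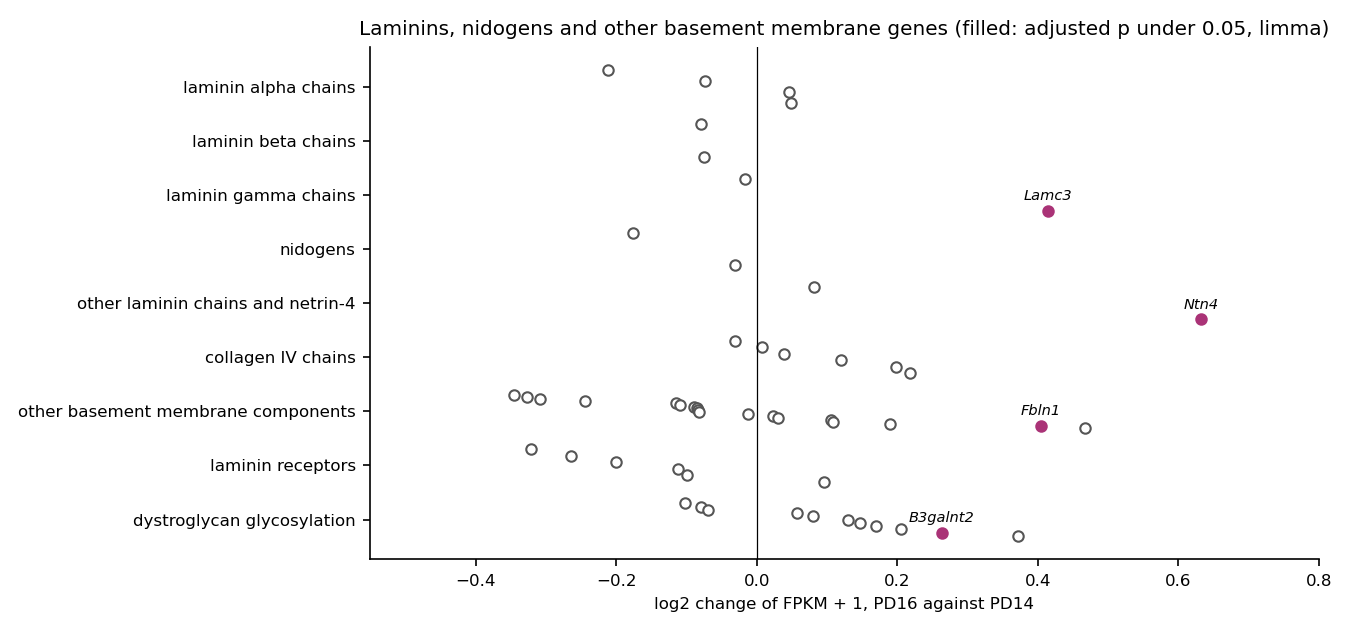
Log2 change of FPKM + 1 from PD14 to PD16 (horizontal axis) of the laminins, the nidogens and related basement membrane genes, 1 point per gene tested, by group. Filled points passed an adjusted p of 0.05 (limma): Lamc3 at 0.42, Ntn4 at 0.63, Fbln1 at 0.40 and B3galnt2 at 0.26.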

How the data were processed

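The 9 libraries, 3 each of PD14, PD15 and PD16 ovaries, were made with the NEBNext Ultra RNA kit for Illumina sequencing. The authors deposited 1 table of FPKM per library, and the submitters' processing notes name HISAT2 2.0.5 and the mm10 build; the counting tool and annotation version are not given in the sources used here. Exon lengths, positions and transcript sequences were read from GENCODE M21 on GRCm38, which holds 96.8% of the listed identifiers. With these lengths, 94.2% to 94.7% of low FPKM (up to 20 fragments) were whole fragments within 0.02, and the depth per library followed from the step.

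All 9 libraries entered 1 limma model of log2(FPKM + 1) with an intensity trend over the genes whose mean FPKM exceeded 1 on any day. Calls used an adjusted p under 0.05 (Benjamini-Hochberg). Single members were also tested by exact permutation. The fit was first tested on simulated data.

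The members and gene lists were chosen with earlier results of these data known. All members, Lama3, Lamb3, Ntn4 and the collagen IV chains were named by rule, other genes where called, and for each member the most correlated gene. Of the 49 related genes listed, 48 were found by symbol and 43 were tested, and some listed items are not reported here. Alternatives were another pseudocount, filters, scalings, limma without a trend, fewer libraries, a replicate block, a correction for gene length, and each library left out. Fits were run in limma 3.58.1 (R 4.3.3), sequences were handled in Biopython 1.88 (Python 3.11.15), and figures were drawn in Matplotlib 3.10.9.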

Additional observations from a re-analysis of the deposited data

How the results depend on the processing

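Of 537 alternative values of the 30 changes of the members, 496 kept their direction and their side of the threshold. The call of Lamc3 at PD16 against PD14 was lost with no filter on low values (log2 change 0.42, adjusted p = 0.0604, limma) and with FPKM rescaled to TPM (0.41, adjusted p = 0.102), so that 0 members were called at PD16 against PD14, and by the test over all days 0 members were called in both settings, in limma without a trend and with the replicate block. No member other than Lamc3 was called in any of 483 alternatives. With each library left out in turn, members called at PD16 against PD14 ran from 0 to 1 and over all days from 0 to 0.

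The count of all genes called was 105, 659 and 113 at PD15 against PD14, PD16 against PD14 and PD16 against PD15. It was 29, 172 and 24 with no filter, 63 at PD15 against PD14 with a mean FPKM above 5, 281 at PD16 against PD14 and 70 at PD16 against PD15 when rescaled to TPM, and 46 and 323 with the 6 libraries of the pair of days. With each library left out in turn it ran from 3 to 92, from 92 to 660 and from 14 to 125.

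Samples with the same replicate number were not treated as pairs in the main model. Of 9 pairs with the same number, 2 had deviations correlated above 0.1 (-0.21 to 0.16). These were PD14 with PD15 for replicate 2 (0.11) and for replicate 3 (0.16). Of 9 libraries, 2 were most like those of their own number. Whether samples with the same number share a litter or a batch was not tested. With the replicate block the genes called were 24, 227 and 56, and Lamc3 at PD16 against PD14 had an adjusted p of 0.0446.

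Changes near 0 turned sign. With the length trend of each library taken off, chosen after seeing the data, these were Lamc1 at PD15 against PD14 (-0.0023), Lama2 (-0.016) and Lama5 (-0.0027) at PD16 against PD14 and Lamb2 at PD16 against PD15 (-0.0036). With each library left out, log2 changes at PD15 against PD14 ran from -0.089 to 0.10 for Lama1, -0.048 to 0.21 for Lama5, -0.064 to 0.050 for Lamb1 and -0.037 to 0.077 for Lamc1. At PD16 against PD14 they ran from -0.14 to 0.029 for Lama1, -0.037 to 0.096 for Lama2, -0.084 to 0.18 for Lama5, -0.071 to 0.043 for Lamc1 and -0.086 to 0.041 for Nid1. At PD16 against PD15 they ran from -0.15 to 0.015 for Lama1, -0.10 to 0.0088 for Lama2, -0.10 to 0.043 for Lama4, -0.087 to 0.0060 for Lama5, -0.038 to 0.091 for Lamb2, -0.082 to 0.019 for Lamc1 and -0.14 to 0.060 for Nid2. The causes were not tested. Lamb3 was too low to be tested, and Lama5 had the fewest fragments of the members.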
